A study of Mus musculus with 6 samples.

Results

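The YAP-TEAD factors and their best known target genes were examined in total RNA of mouse embryonic stem cells. They comprised 10 of the 42450 genes listed and were taken by name from the Hippo pathway. The factors were the co-activators Yap1 and Wwtr1 (which encodes TAZ) and the DNA-binding partners Tead1, Tead2 and Tead4. The targets were Ccn1 (also named Cyr61), Ccn2 (also named Ctgf), Ankrd1, Amotl2 and Thbs1.

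In the Hippo pathway, the kinases STK3 and STK4 activate the kinases LATS1 and LATS2, which phosphorylate YAP1 and TAZ and so keep them in the cytoplasm. When the kinases are inactive, YAP1 and TAZ enter the nucleus, bind a TEAD protein on DNA and raise transcription of genes such as Ccn1 and Ccn2. Cell density, cell shape and tension of the actin cytoskeleton all regulate this switch. In the early mouse embryo it separates the trophectoderm, where TEAD4 and nuclear YAP1 switch on Cdx2, from the inner cell mass, from which embryonic stem cells are derived. Because YAP1 and TAZ are regulated mainly at the protein level, the RNA level of the factors and that of their targets are separate readouts.

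Libraries were prepared from 3 WT and 3 Srrm2+/- samples. WT cells were the male line E14tg2a.4, and Srrm2+/- cells were 1 gene-trap line derived from it, with a cassette in exon 1 of 1 Srrm2 allele. SRRM2 is a splicing factor found in nuclear speckles. Both lines were grown on gelatin with leukemia inhibitory factor, in serum-containing and then in serum-free medium, and received no other treatment. The replicates were thawed from separate frozen batches of different passage, and WT cells were at a higher passage than Srrm2+/- cells, so that genotype, clone and passage cannot be told apart. Library totals were 54151433 to 69933421 estimated counts. Levels are given as CPM (counts per 1000000 counted reads) after TMM normalisation, which corrects for differences in composition between libraries. Srrm2 itself was lower in every Srrm2+/- library (56.2 to 62.3 CPM) than in any WT library (91.2 to 98.3 CPM), at -0.69 on the log2 scale (SE 0.05, edgeR adjusted p 2.38e-05).

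TEAD proteins bind the sequence GGAATG, which reads CATTCC on the opposite strand. The 250 bases upstream of each annotated start were searched for it on both strands because it is the letter pattern through which YAP1 and TAZ reach DNA. The RefSeq promoter table on GRCm38.p6 held windows for 6 of the 10 genes, namely Ccn1, Ankrd1, Amotl2, Yap1, Wwtr1 and Tead2. Windows of 5 of these 6 genes contained the motif, and the window of Tead2 did not. Of all 27025 genes with a window, 14.4% contained it. The genes searched were chosen as YAP-TEAD factors and known targets, so they are not a random draw from all genes. The matches are shown with 12 bases on either side, 5′ to 3′ on the strand of the gene, with the TEAD motif in capitals.
Ccn1, chr3:145650071-145650100, minus strand: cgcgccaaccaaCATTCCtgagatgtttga
Ankrd1, chr19:36120037-36120066, minus strand: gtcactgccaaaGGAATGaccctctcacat
Ankrd1, chr19:36119950-36119979, minus strand: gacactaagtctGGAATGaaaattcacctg
Amotl2, chr9:102717727-102717756, plus strand: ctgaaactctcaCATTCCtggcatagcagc
Yap1, chr9:8004720-8004749, minus strand: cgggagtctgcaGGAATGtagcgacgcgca
Wwtr1, chr3:57576029-57576058, minus strand: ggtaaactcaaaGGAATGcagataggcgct

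The motif lay between 103 and 98 bases upstream of the start of Ccn1, between 65 and 60 bases upstream of that of Amotl2 and between 141 and 136 bases upstream of that of Yap1. Ankrd1 held 2 copies, from 210 to 205 and from 123 to 118 bases upstream. Both copies in Ankrd1 and the match in Amotl2 lie in exons of the GENCODE annotation, which places the start of a transcript further upstream, and the other matches lie outside annotated exons. In Wwtr1 it lay 136 to 131 bases upstream of 1 annotated start and 170 to 165 bases upstream of another. Neither the AP-1 motif TGANTCA nor the CArG box, which the serum response factor binds, occurred in a window of these genes. AP-1 motifs were present in 7.82% and CArG boxes in 1.62% of all genes with a window. At such shares, absence from the windows of 6 genes says little, and Ccn2 and Thbs1 had no window to search. A match is a description of the letters in the window, and binding was not measured. The promoter of Ccn1, which had the largest rise of the 10 genes, is given in full (chr3:145649986-145650235, minus strand, ending at the base before the start), again with the TEAD motif in capitals.
Ccn1: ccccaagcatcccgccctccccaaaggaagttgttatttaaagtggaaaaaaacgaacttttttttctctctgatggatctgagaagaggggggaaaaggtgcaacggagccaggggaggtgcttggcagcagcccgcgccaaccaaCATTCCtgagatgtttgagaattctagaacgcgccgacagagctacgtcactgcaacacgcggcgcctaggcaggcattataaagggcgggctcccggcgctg

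To ask how the pathway differed between the lines, the level of each gene was compared between WT and Srrm2+/- cells with edgeR, with 0.05 as the limit of the adjusted p for a call. Ccn1, Ccn2, Thbs1 and Amotl2 rose by 2.56-fold to 15.5-fold, whereas the factors moved by less than the smallest of these rises. Yap1 and Tead2 rose slightly, Tead4 fell, and Wwtr1 and Tead1 were not called. Of the 9 genes that passed the filter on low counts, 6 were therefore higher and 1 was lower in Srrm2+/- cells. Among all 18905 genes tested, 13.6% were called higher, 11.7% lower and 25.3% in either direction. The median log2 fold change was 0.23 over the 9 genes and -0.0025 over all genes tested. Values of WT and Srrm2+/- libraries did not overlap for 7 of the 9 genes, against 41.4% of all genes tested. In bulk RNA, a change in the number of cells of a kind and a change in RNA per cell cannot be told apart. This holds for the rises as well as for the falls.

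**Figure D1:**
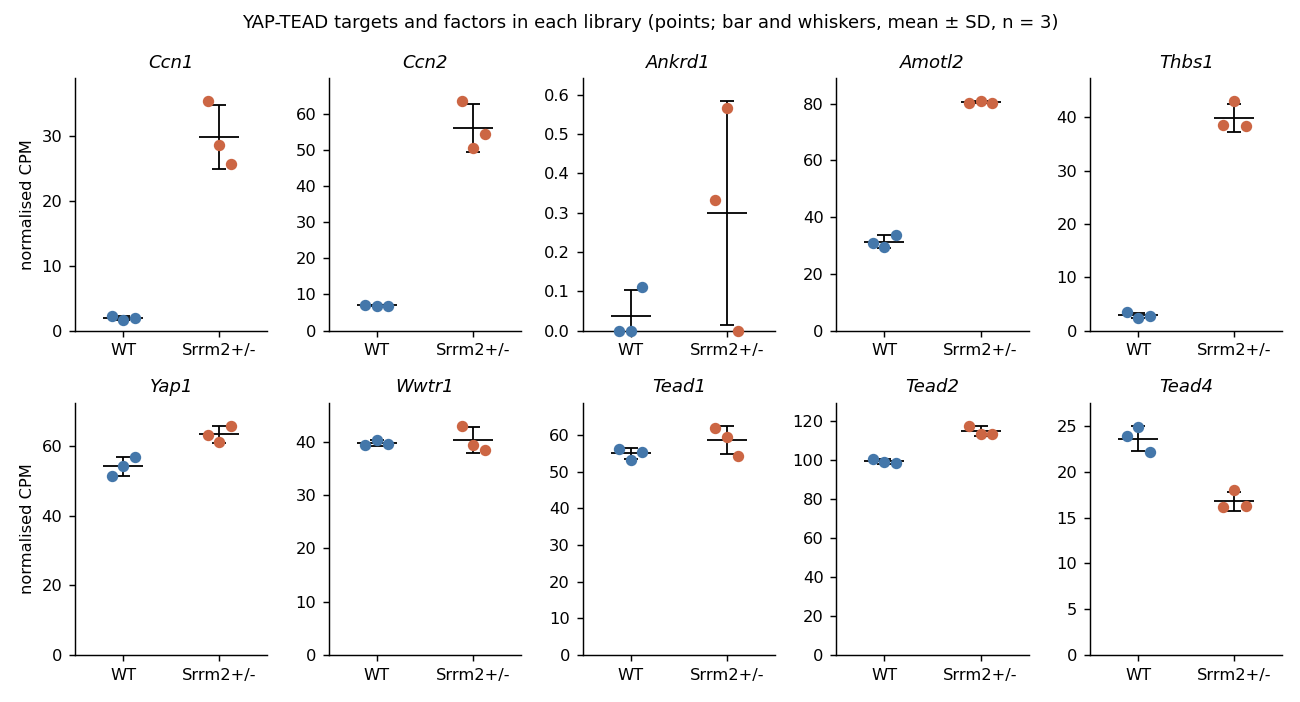
TMM-normalised CPM (vertical axes, each starting at 0) of the 10 genes in WT (blue) and Srrm2+/- (orange) libraries; points are libraries, and the bar and whiskers are the mean and SD (n = 3). The groups are far apart for Ccn1, Ccn2, Amotl2 and Thbs1 and close together for the factors, with Tead4 lower in all 3 Srrm2+/- libraries.

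Among the targets, Ccn1 (ENSMUSG00000028195, GRCm38 chromosome 3, 145646976 to 145649981, minus strand) encodes a secreted matricellular protein that binds integrins. Its level was 2.24, 1.57 and 1.98 CPM in the WT libraries and 35.4, 28.7 and 25.7 CPM in the Srrm2+/- libraries. The WT libraries rested on 91 to 124 estimated counts and the Srrm2+/- libraries on 1588 to 2452. All 3 Srrm2+/- libraries lay above all WT libraries, and the mean rose from 1.93 ± 0.333 to 29.9 ± 4.97 CPM (SD, n = 3 each). This 15.5-fold rise (3.96 on the log2 scale, SE 0.155, edgeR adjusted p 8.69e-07) placed Ccn1 at rank 29 of the 18905 genes ordered from the largest rise.

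Its relative Ccn2 (ENSMUSG00000019997, chromosome 10, 24595442 to 24598683, plus strand), also encodes a matricellular protein and is a common readout of YAP activity. Its level was 7.14, 6.87 and 6.95 CPM in WT libraries, against 63.5, 50.7 and 54.4 CPM in Srrm2+/- libraries. The groups did not overlap, and the mean rose 8.05-fold from 6.98 ± 0.138 to 56.2 ± 6.60 CPM (SD, n = 3 each). The change was 3.01 on the log2 scale (SE 0.09, edgeR adjusted p 1.70e-07). Of the 31-base words in transcripts of Ccn2, 19.7% also occurred in other genes. The gene that shared the largest number was the overlapping antisense gene Gm15270. The strand setting of the counting is not given in the sources used here. Gm15270 was at 0.502 to 0.838 CPM in all 6 libraries and was not called (edgeR adjusted p 0.788).

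Thbs1 (ENSMUSG00000040152, chromosome 2, 118111876 to 118127133, plus strand) encodes thrombospondin 1, a secreted protein of the matrix that binds CD47 and activates latent TGF-beta. Levels were 3.41, 2.32 and 2.76 CPM in WT and 38.5, 43.0 and 38.3 CPM in Srrm2+/- libraries. Every Srrm2+/- library lay above every WT library, and the mean rose 14.1-fold from 2.83 ± 0.547 to 39.9 ± 2.64 CPM (SD, n = 3 each). On the log2 scale the rise was 3.82 (SE 0.12, edgeR adjusted p 1.84e-07). By size of rise Thbs1 ranked 37 and Ccn2 97 of the genes tested.

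Amotl2 (ENSMUSG00000032531, chromosome 9, 102716672 to 102733418, plus strand) encodes an angiomotin-like protein that binds YAP1 and holds it at junctions and actin, and the gene is itself switched on by YAP1. It was at 30.9, 29.4 and 33.8 CPM in WT and at 80.3, 80.8 and 80.3 CPM in Srrm2+/- libraries. The groups did not overlap, and the 2.56-fold rise was 1.36 on the log2 scale (SE 0.05, edgeR adjusted p 9.17e-07). Of the 4 targets tested, Amotl2 had the smallest rise. The same 4 targets were the genes with a log2 fold change of at least 1, which 4.3% of all genes tested reached in the upward direction with an adjusted p under 0.05.

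Ankrd1 (ENSMUSG00000024803, chromosome 19, 36111961 to 36120099, minus strand), a muscle ankyrin repeat protein that responds to stretch, was close to undetected. The WT libraries held 0, 0 and 6 estimated counts, and the Srrm2+/- libraries held 23, 39 and 0. The groups overlapped because Srrm2+/- replicate 3 was at 0, and the gene did not pass the filter on low counts. When all genes with at least 1 count were tested, the fitted change was 2.99 on the log2 scale (SE 1.20, edgeR adjusted p 0.129), and without Srrm2+/- replicate 3 it was 3.56 (SE 0.989, edgeR adjusted p 0.044). Without a WT library the adjusted p was 0.0901 to 0.309. No difference in Ankrd1 was called with all 6 libraries.

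**Figure D2:**
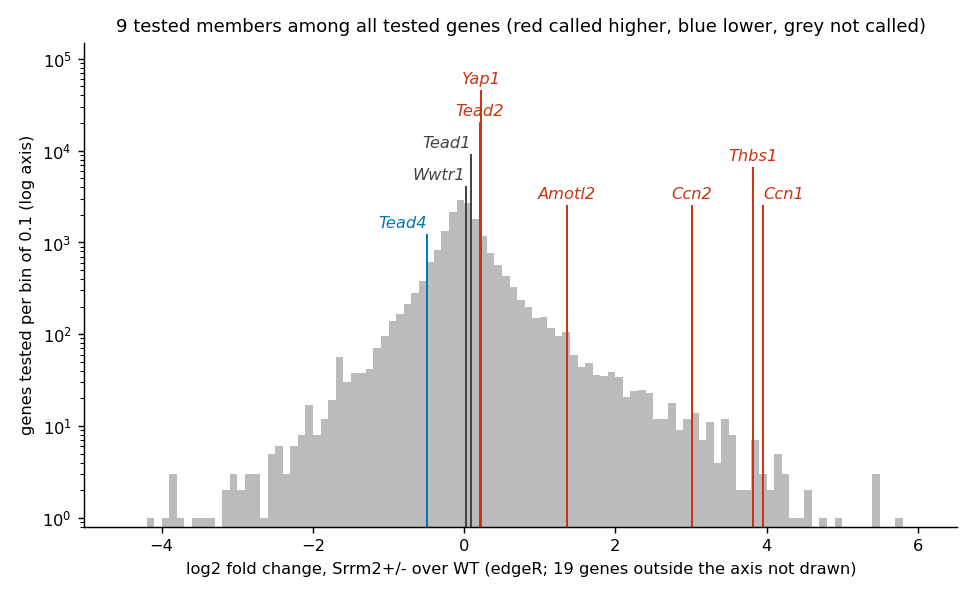
Numbers of tested genes (vertical log axis, bins of 0.1) by log2 fold change of Srrm2+/- over WT (horizontal axis, edgeR), with vertical lines at the 9 tested YAP-TEAD genes whose heights carry no meaning; 19 of 18905 genes lie outside the axis. Ccn2, Thbs1 and Ccn1 stand in the upper tail between 3.01 and 3.96, and Wwtr1, Tead1, Tead2, Yap1 and Tead4 stand in the body of the distribution.

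The co-activators differed little between the lines. Yap1 (ENSMUSG00000053110, chromosome 9, 7931999 to 8004596, minus strand) was at 51.4, 54.2 and 56.7 CPM in WT and at 63.1, 61.1 and 65.8 CPM in Srrm2+/- libraries. The groups did not overlap, and the 1.17-fold rise, at rank 4522, was 0.23 on the log2 scale (SE 0.05, edgeR adjusted p 0.00926). Wwtr1 (ENSMUSG00000027803, chromosome 3, 57455649 to 57575910, minus strand) gave 39.4, 40.4 and 39.5 CPM in WT and 43.0, 39.4 and 38.4 CPM in Srrm2+/- libraries. These Wwtr1 values overlapped, and the log2 fold change of 0.02 was smaller than its SE of 0.05 (edgeR adjusted p 0.845). Wwtr1 made up 59.7%, 59.1% and 57.4% of the summed counts per kilobase of Yap1 and Wwtr1 in WT libraries and 56.9%, 55.5% and 53.0% in Srrm2+/- libraries. The shares did not overlap, with a difference of -3.60 percentage points, at p 0.1 in a two-sided exact permutation test, the smallest p that 3 against 3 samples can give. Which of the 2 genes is the more abundant depended on the length used, since Wwtr1 held 58.7% ± 1.18 (SD, n = 3) of the WT sum with the merged exons of each gene and 45.3% ± 1.20 with its longest transcript.

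Transcripts of Yap1 shared 3.07% and those of Thbs1 2.68% of their 31-base words with other genes. For each, the gene that shared the largest number was an antisense gene, which had at most 14 counts in any library.

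The TEAD factors moved in different directions. Tead2 (ENSMUSG00000030796, chromosome 7, 45215753 to 45233644, plus strand), the TEAD gene with the highest level per kilobase here, gave 100.4, 98.9 and 98.2 CPM in WT and 117.5, 113.0 and 113.5 CPM in Srrm2+/- libraries. Tead2 overlaps Cd37 on the other strand, which stayed below 1 CPM. The groups did not overlap, and Tead2 rose 1.16-fold (log2 fold change 0.21, SE 0.04, edgeR adjusted p 0.00294). Tead4 (ENSMUSG00000030353, chromosome 6, 128224288 to 128300823, minus strand), the TEAD gene required for the trophectoderm, gave 23.9, 24.9 and 22.1 CPM in WT and 16.1, 18.0 and 16.3 CPM in Srrm2+/- libraries. It was the only one of the 9 tested genes that fell, by 0.49 on the log2 scale (SE 0.07, edgeR adjusted p 0.000784), with no overlap between groups. Tead1 (ENSMUSG00000055320, chromosome 7, 112679318 to 112906807, plus strand) ranged from 53.3 to 56.3 CPM in WT and from 54.4 to 62.0 CPM in Srrm2+/- libraries. Its values overlapped, and its log2 fold change of 0.09 (SE 0.05) was not called (edgeR adjusted p 0.256).

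Tead3, the remaining TEAD gene, was the least abundant, at 2.83, 2.92 and 2.41 CPM in WT and 6.39, 4.89 and 5.58 CPM in Srrm2+/- libraries, and it rose by 1.04 on the log2 scale (SE 0.14, edgeR adjusted p 0.000756). The make-up of the TEAD transcripts therefore differed between the lines. As a share of the summed counts per kilobase of all 4 genes, Tead2 was at 65.2%, 64.7% and 65.9% in WT and at 71.0%, 70.0% and 71.7% in Srrm2+/- libraries. Tead4 held 20.6%, 21.7% and 19.8% in WT and 13.0%, 14.8% and 13.7% in Srrm2+/- libraries. Neither pair of groups overlapped, with a two-sided exact permutation p of 0.1 for each. Tead3 increased from 1.28% ± 0.109 to 2.47% ± 0.300 (SD, n = 3 each), and Tead1 was at 12.8% in both lines (difference 0.0186 percentage points, exact permutation p 1). Per kilobase, the ratio of Tead3 to Tead4 was 0.0583 to 0.0634 in WT and 0.145 to 0.212 in Srrm2+/- libraries.

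**Figure D3:**
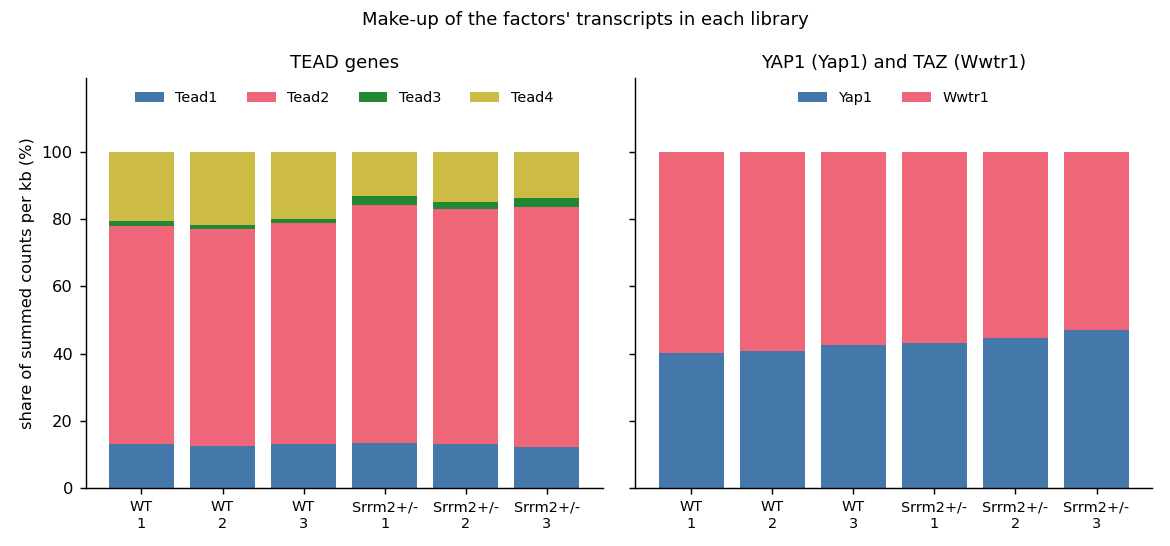
Share (vertical axis, percent) of each gene in the summed counts per kilobase of the 4 TEAD genes (left) and of Yap1 and Wwtr1 (right), with 1 bar per library. Tead4 takes 19.8% to 21.7% of the TEAD sum in WT bars and 13.0% to 14.8% in Srrm2+/- bars, and Tead2 takes more in every Srrm2+/- bar.

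Levels can be compared between genes only per length, and CPM were therefore divided by the kilobases of merged exons. In WT cells the order was Tead2 (20.7 ± 0.235 CPM per kb), Wwtr1 (8.31 ± 0.114), Tead4 (6.57 ± 0.390), Yap1 (5.84 ± 0.286), Amotl2 (4.99 ± 0.356), Tead1 (4.05 ± 0.113), Ccn2 (2.44 ± 0.0483), Ccn1 (0.956 ± 0.165), Thbs1 (0.466 ± 0.0901) and Ankrd1 (0.0129 ± 0.0224) (SD, n = 3 each). Neighbours in this order did not overlap across libraries, and the value of Ankrd1 rested on counts in 1 library. The factors thus stood above all targets other than Amotl2 in WT cells. In Srrm2+/- cells Tead2 still led at 23.9 ± 0.508 CPM per kb, but Ccn2 (19.7 ± 2.31), Ccn1 (14.8 ± 2.46) and Amotl2 (12.8 ± 0.0465) came next, ahead of Wwtr1 (8.42 ± 0.509) and Yap1 (6.84 ± 0.254). Ccn1 overlapped with Amotl2 there, Yap1 with Thbs1 (6.58 ± 0.435) and Tead4 (4.67 ± 0.289) with Tead1 (4.32 ± 0.286). With the longest transcript as the length, Yap1 stood above Wwtr1 in both lines, at 10.2 against 8.46 CPM per kb in WT cells. In Srrm2+/- cells that length also placed Amotl2 (18.2) above Ccn1 (14.8) and Tead1 (5.89) above Tead4 (5.47). Yap1 (12) then stood well above Thbs1 (6.83), so the order of these genes depended on the length used.

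The targets did not all rise in step. The ratio of Ccn2 to Ccn1 per kilobase was 2.25, 3.08 and 2.48 in WT and 1.27, 1.25 and 1.49 in Srrm2+/- libraries, a log2 difference of -0.96 with no overlap (two-sided exact permutation p 0.1). For Thbs1 over Ccn1 the ratios were 0.507, 0.490 and 0.464 in WT and 0.362, 0.498 and 0.494 in Srrm2+/- libraries. They overlapped, and the log2 difference was -0.12 (exact permutation p 0.7). The coefficient of variation of Ccn1 was 17.3% in WT and 16.6% in Srrm2+/- libraries. That of Amotl2 was 7.13% in WT and 0.364% in Srrm2+/- libraries, where it spanned 80.3 to 80.8 CPM. Each value rests on 3 libraries and includes counting noise, and a difference in spread between the targets was not tested.

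The rest of the pathway was described through lists of known members. Of all genes tested, 13.6% were called higher and 11.7% lower. Of 18 Hippo kinases and scaffolds, 7 were higher, 4 were lower and 7 were not called, with a median log2 fold change of 0.01. Of the kinases and scaffolds at the core of the cascade, only Lats2 was called (log2 fold change 1.59, edgeR adjusted p 0.000156). Stk4 (0.01), Lats1 (-0.01), Mob1a (-0.10), Mob1b (-0.10) and Sav1 (0.15) were not called, with edgeR adjusted p of 0.0834 or more. Stk3 was not called either (log2 fold change -0.25, edgeR adjusted p 0.181), but without WT replicate 2, its lowest WT library, the value was -0.39 (adjusted p 0.00407). Over all alternatives its adjusted p reached 0.436. Among the genes that fell, Nf2, which encodes the tumour suppressor merlin, went from 166 to 174 CPM in WT to 135 to 142 CPM in Srrm2+/- libraries (log2 fold change -0.30, edgeR adjusted p 0.000537). Map4k4 (-0.41), Taok1 (-0.25) and Taok3 (-0.22), kinases that act on the core of the cascade, were the others. Taok2, of the same upstream group, was not called (0.01, edgeR adjusted p 0.886).

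The largest rises in this list belonged to inhibitors that bind YAP1 or phosphorylate it, several of which are also known targets of YAP1. Amot, which encodes angiomotin, was at 1.39, 1.33 and 1.42 CPM in WT and at 8.51, 7.29 and 7.94 CPM in Srrm2+/- libraries, with no overlap (log2 fold change 2.52, SE 0.12, edgeR adjusted p 1.92e-06). Amotl1 rose with a log2 fold change of 1.65, Lats2 with 1.59 and Ptpn14, a phosphatase that binds YAP1, with 2.23 (edgeR adjusted p 5.56e-06, 0.000156 and 1.69e-06). The 3 angiomotin genes did not rise in proportion, since the ratio of Amotl2 to Amot per kilobase fell from 29.5 to 31.8 in WT to 12.6 to 14.8 in Srrm2+/- libraries. Summed over Amot, Amotl1 and Amotl2, the level was 6.23, 6.24 and 7.02 CPM per kb in WT and 18.1, 18.1 and 17.6 CPM per kb in Srrm2+/- libraries. Wwc2 (0.53), Frmd6 (0.48) and Wwc1 (0.16, edgeR adjusted p 0.0382), scaffold proteins upstream of the kinases, rose less. The calls of Wwc1 and of Taok3 were lost in 10 and 11 of 16 alternatives, with DESeq2, with the replicate block and without most single libraries among them, and their adjusted p reached 0.11 and 0.145.

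Vestigial-like proteins compete with YAP1 for TEAD. With Tead3 they formed a list of 5 TEAD partners, of which 3 were tested. All 3 were called higher, against 13.6% of all genes tested, with a median log2 fold change of 1.29. Vgll3 went from 0.744 to 1.12 CPM in WT to 3.89 to 4.29 CPM in Srrm2+/- libraries (log2 fold change 2.11, SE 0.17, edgeR adjusted p 4.58e-05). Vgll4, a repressor of TEAD activity, rose by 1.29 on the log2 scale (SE 0.15, edgeR adjusted p 0.000307). Vgll1 and Vgll2 had 0 counts in WT and at most 8 in an Srrm2+/- library and were not tested.

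A list of 18 further YAP-TEAD targets moved mostly upwards. Of 17 tested, 12 were higher, 1 was lower and 4 were not called, and the median log2 fold change was 1.43. Among all genes tested, 13.6% were called higher and 11.7% lower. Tgfb2, which encodes a secreted growth factor, was at 0.613, 0.571 and 0.653 CPM in WT and at 4.55, 5.41 and 4.93 CPM in Srrm2+/- libraries (log2 fold change 3.02, SE 0.15, edgeR adjusted p 2.90e-06). The receptor tyrosine kinase Axl was at 1.82, 1.87 and 1.75 CPM in WT and at 10.4, 9.13 and 8.43 CPM in Srrm2+/- libraries (2.36, SE 0.12, edgeR adjusted p 2.90e-06). Both genes were higher in every Srrm2+/- library than in any WT library. Nt5e (2.36), F3 (1.88), which encodes tissue factor, Fjx1 (1.45), Igfbp3 (1.43), Crim1 (1.08), Arhgef17 (0.82) and Nuak2 (0.47) also rose, as did Lats2 and Ptpn14 of the list above. Ccdc80 was called higher on few counts, with 3, 0 and 0 in WT and 49, 37 and 39 in Srrm2+/- libraries, so that the size of its rise is uncertain. The exception was Myof, which encodes the membrane protein myoferlin and fell from 10.3 to 11.8 CPM in WT to 5.42 to 6.53 CPM in Srrm2+/- libraries (log2 fold change -0.86, SE 0.10, edgeR adjusted p 0.000301). Gadd45a (0.08), Asap1 (0.03), Dock5 (0.18) and Rbms3 (0.49) were not called, with edgeR adjusted p of 0.174 or more, and Foxf2 was not tested.

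**Figure D4:**
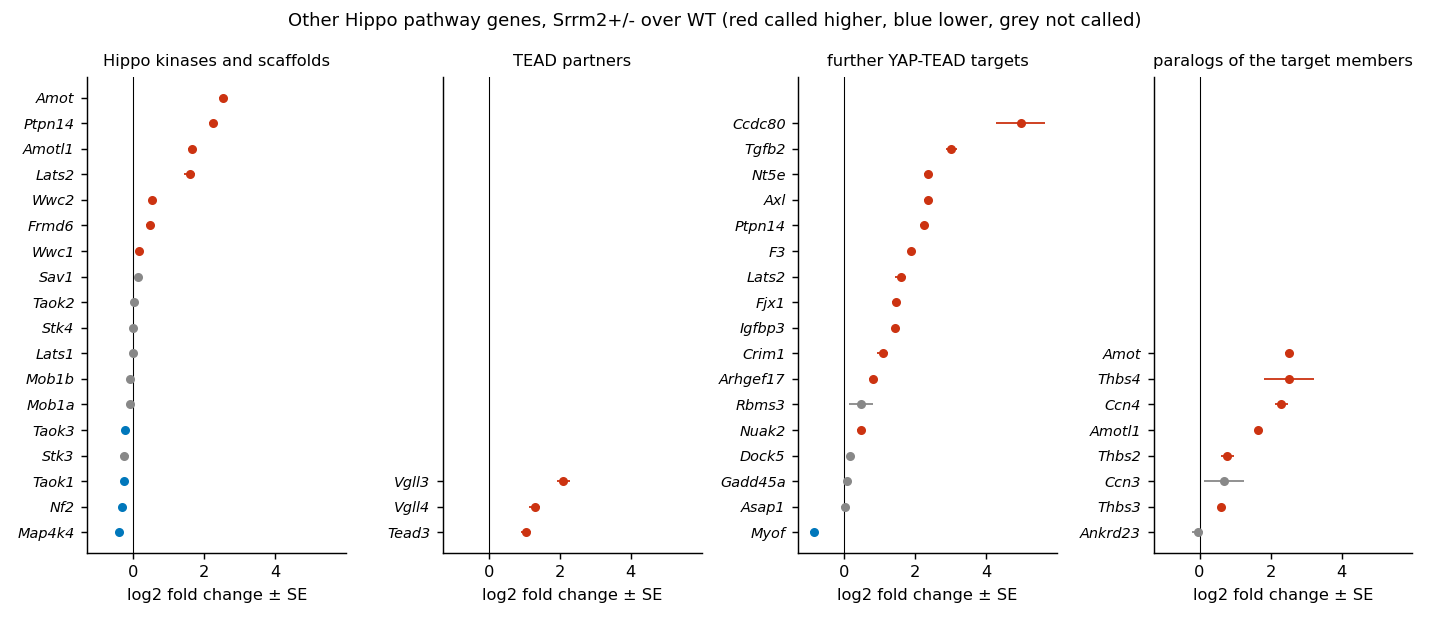
Log2 fold change of Srrm2+/- over WT (horizontal axes, points) with its SE (bars) for the tested genes of 4 lists, in red where called higher, blue where called lower and grey where not called. Amot, Ptpn14, Amotl1 and Lats2 stand to the right among the kinases and scaffolds, and Myof is the 1 further target called lower.

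Paralogs of the targets were compared as well, to see whether the rises were shared by their families. Of 11 paralogs, 8 were tested, of which 6 were higher and 0 were lower, against 13.6% and 11.7% of all genes tested. Their median log2 fold change was 1.22. Ccn4, a relative of Ccn1 and Ccn2 known as a target of Wnt signalling, rose from 0.896 to 0.991 CPM in WT to 3.67 to 5.64 CPM in Srrm2+/- libraries (log2 fold change 2.30, SE 0.19, edgeR adjusted p 4.65e-05). Ccn3 was not called (0.69, adjusted p 0.424), and Ccn5 had 0 counts in all libraries. Of the thrombospondins, Thbs3 (0.61, edgeR adjusted p 0.000742), Thbs2 (0.78, adjusted p 0.0131) and Thbs4 (2.51, adjusted p 0.0307) rose. Thbs4 stayed at or below 0.502 CPM in all libraries, and Thbs2 reached at most 1.62 CPM. Without Srrm2+/- replicate 3 the adjusted p was 0.0534 for Thbs2 and 0.107 for Thbs4, and Thbs4 was also not called without either of WT replicates 1 and 2 or Srrm2+/- replicate 1. Amot and Amotl1 made up the remaining rises, and Ankrd23 was not called (-0.05, adjusted p 0.842).

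Because TEAD4 is known for the trophectoderm, genes of that lineage were listed separately, whether or not they depend on TEAD4. Of 5, 4 were tested, with 1 higher, 1 lower and 2 not called, against 13.6% higher and 11.7% lower of all genes tested. Cdx2, the defining factor of that lineage, had 0 counts in all WT libraries and 5, 8 and 17 in the Srrm2+/- libraries, and did not pass the filter on low counts. When all genes with at least 1 count were tested, Cdx2 was called higher (edgeR adjusted p 0.0112). Tfap2c, which is also expressed in germ cells, fell from 50.2 to 51.0 CPM in WT to 29.6 to 32.9 CPM in Srrm2+/- libraries (log2 fold change -0.71, SE 0.05, edgeR adjusted p 2.11e-05). Eomes was at 0.468 to 0.692 CPM in WT and 0.855 to 1.15 CPM in Srrm2+/- libraries (0.79, edgeR adjusted p 0.0387), a call lost in 10 of 15 alternatives, with adjusted p of up to 0.139, among them the test of all genes with at least 1 count. Gata3 (0.38) and Elf5 (-0.33) were not called (edgeR adjusted p 0.287 and 0.419).

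Markers of the labelled and of other cell types were measured beside these genes. The shares of all genes tested were again 13.6% called higher and 11.7% lower. All 7 embryonic stem cell markers were expressed in every library. Pou5f1 (810 to 863 CPM over the 6 libraries) was not called, 5 markers were lower, with Nanog at -0.72, and Utf1 was higher. YAP-TEAD targets are also abundant in fibroblasts, where Ccn1, Ccn2 and Thbs1 are typical. Of 8 fibroblast markers, 6 were tested and 4 were higher. These were Col1a1 (log2 fold change 1.13), Col1a2 (3.89), Col3a1 (2.28) and Postn (2.835), with edgeR adjusted p of 0.00393 or less. Col1a2 was at 0.108 to 0.26 CPM in WT and 2.44 to 3.84 CPM in Srrm2+/- libraries. Thy1 (1.75 to 2.09 CPM in WT, 0.885 to 1.77 CPM in Srrm2+/- libraries) and Pdgfrb were not called. All 8 markers together, Thy1 among them, summed to 3.47 to 3.68 CPM in WT and 6.99 to 10.9 CPM in Srrm2+/- libraries. The untested markers Dcn (0, 0 and 0 against 4, 2 and 3 counts) and Lum (3, 0 and 0 against 0, 1 and 3 counts) were at or near 0 in all libraries. The 5 endoderm markers summed to 1.49 to 1.90 CPM in WT and 1.41 to 1.80 CPM in Srrm2+/- libraries. Only 3 of them were tested and none was called, namely Gata4 (-0.0038), Gata6 (0.95) and Sox7 (-0.77, edgeR adjusted p 0.0888). Sox17 and Foxa2 did not pass the filter on low counts. The 5 endothelial markers, mostly Pecam1, which stem cells also express, summed to 93.2 to 97.1 CPM in WT and 69.4 to 74.0 CPM in Srrm2+/- libraries. Of these, Pecam1 and Tek were lower and Kdr was higher, and Cdh5 had at most 1 count in a library. The part of the fibroblast collagens in the rises of the targets was not tested.

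The genes most like Ccn1, Ccn2 and Yap1 were found from log2 CPM centred on the WT mean, by the root mean square difference over the 6 libraries among the 11952 genes whose log2 CPM averaged 1 or more. Ccn1 was closest to Anxa3 (difference 0.149), which encodes an annexin, and to the simple epithelial keratins Krt8 (0.157) and Krt18 (0.161). Their log2 fold changes were 3.82, 3.85 and 3.79. Ccn2 was closest to Cald1 (0.118), which encodes the actin-binding protein caldesmon, Cnn1 (0.121), which encodes calponin, and Tmcc3 (0.148), with log2 fold changes of 3.04, 3.14 and 2.97. Yap1 was closest to Zfp770 (0.0163), Spag9 (0.0169) and Mroh1 (0.0200), with log2 fold changes of 0.23, 0.22 and 0.23. These likenesses are over 6 libraries in 2 groups and describe mainly the difference between the groups.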

How the data were processed

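Total RNA of 3 WT and 3 Srrm2+/- samples was sequenced from stranded, paired-end libraries. The authors pseudo-aligned reads with Kallisto 0.46.1 to GENCODE M24 (GRCm38, mm10) and deposited estimated counts per gene, not normalised. Reads that fit several transcripts are split among them, so counts of overlapping genes are less certain. Their strand setting is not given in the sources used here. Spike-ins were not used here.

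Estimated counts were rounded to whole numbers. Symbols, positions and lengths came from GENCODE M21 on the same build (42156 of 42450 identifiers matched). Genes past filterByExpr (minimum count 10, minimum total 15) were tested with edgeR 4.0.16 in R 4.3.3 (TMM, glmQLFit, glmQLFTest, two-sided, genotype as the sole term, all 6 libraries, Benjamini-Hochberg adjustment over 18905 genes). SE is the log2 fold change divided by the square root of F. Scripts were tested on simulated data. Shares and ratios were compared by exact permutation. Groups came from the sample titles. Pairs of libraries within a group all differed by more than sampling noise (lowest chi-square over degrees of freedom 14.7). P-values set the difference between the groups against the spread among these samples. The samples were batches of a single gene-trap line and of its parental line.

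The YAP-TEAD genes, the other lists and the tests were chosen with earlier results of these data known. Genes named were Srrm2, these genes, all genes of the lists and, for Ccn1, Ccn2 and Yap1, the 3 genes of most similar pattern. Alternatives were RLE and upper quartile normalisation, DESeq2 1.42.0, limma voom (3.58.1), other filters, stricter calls, a replicate block, removal of short, ribosomal and mitochondrial RNA, other gene lengths and each library left out. The study's other assays were not used here.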

Additional observations from a re-analysis of the deposited data

How the results depend on the processing

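Ccn1 (log2 fold change 3.82 to 4.08), Ccn2 (2.91 to 3.08), Thbs1 (3.69 to 3.98) and Amotl2 (1.32 to 1.42) were called higher under all 16 alternatives run. Yap1 (0.19 to 0.26), Tead2 (0.19 to 0.22) and Tead4 (-0.54 to -0.45) lost their call only when a log2 fold change of at least 1 was required, which left 4 of the YAP-TEAD genes higher and 0 lower. That rule gave 813 higher and 340 lower genes in all, with 4 Hippo kinases and scaffolds higher and 0 lower, and 0 further targets, endothelial markers, embryonic stem cell markers and trophectoderm genes lower, the latter 2 lists also 0 higher. At an adjusted p under 0.01, 1574 genes were higher and 1205 lower. The count of 1 higher trophectoderm gene, Eomes, became 0 at that threshold, with DESeq2, with the filter of 1 CPM and with the replicate block, and 0 to 1 when a library was left out. With the filter of at least 1 count Eomes lost its call and Cdx2 gained one, leaving 1. Fibroblast markers higher numbered 2 with the filter of 1 CPM, where fewer were tested, and 0 to 1 were lower when a library was left out, Thy1 being the gene without Srrm2+/- replicate 3. The difference in the share of Tead1 changed sign with the longest transcript (-0.193 percentage points), with no length scaling (-0.518) and without single libraries (lowest -0.22, highest 0.351). When single libraries were left out, log2 fold changes near 0 also changed sign, namely those of Wwtr1 (lowest -0.0307, highest 0.0527), Stk4 (-0.0234 to 0.0386) and Lats1 (-0.0787 to 0.0451). Calls of Wwc1 and Taok3 were lost in 10 and 11 of 16 alternatives, and those of Thbs2 and Thbs4 in some. The cause of these changes was not tested unless stated. Samples of equal replicate number showed no shared deviation from their group means (correlations of deviations -0.028, -0.034 and -0.030). This cannot show whether they were handled together, which the titles do not say. The replicate block changed 0 calls among the YAP-TEAD genes. Low counts limit Ankrd1, Cdx2 and Ccdc80.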
